A study of Mus musculus with 4 samples.

Results

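Pdgfra, Pdgfrb, Egfr, Cxcl12 and Thbd were followed in single cells of mouse hindlimbs at E14.5, in and around the cartilage and inside and outside the Gli1 lineage. They are 5 of the 32285 genes in the deposited tables, found by symbol. They were chosen by their levels in the tdt_positive against the tdt_negative libraries, within and outside cartilage, and over cell types, so those levels are given as a description with no test. The 4 libraries (10x Genomics, 3' chemistry) each held sorted tdt_positive (tdT+) or tdt_negative (tdT-) cells of collection 1 or 2, called replicates 1 and 2. All embryos were heterozygous for the Gli1-CreER knock-in, which takes the place of an intact Gli1 allele, for the tdTomato reporter at R26 (LSL-tdT) and for a doxycycline-dependent p21 transgene at Tigre (TRE-p21). All were exposed to doxycycline from E12.5 (1 mg per ml in the dams' water, and food) and to tamoxifen at E13.5 (120 μg per g). Pan-Cart-p21 MOE embryos (EXP) also carried Col2a1-rtTA, which switches p21 on in a mosaic of Col2a1-expressing cells, and controls (CTL) did not. Tamoxifen marks with tdTomato the cells that expressed Gli1 at that time, and their descendants, to the extent that recombination worked. Each library held EXP and CTL cells, which were told apart by cell sex: EXP cells were male and CTL cells female in replicate 1, and the reverse held in replicate 2. Condition and sex can therefore not be told apart within a replicate, and they were swapped between the replicates. The 8 summed samples of each compartment come from 4 embryo pools, because both sorted fractions of a pool were taken from the same embryos. The study's methods name a single EXP female, in which case the female EXP pool is a single embryo. P-values over 8 summed samples therefore measure the spread between samples of which pairs share animals.

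PDGFRα and PDGFRβ are receptor tyrosine kinases for the platelet-derived growth factors, and the former is a widely used marker of fibroblasts and limb mesenchyme while the latter is known from pericytes and stromal cells. EGFR binds EGF, TGFα, HB-EGF, amphiregulin and related ligands and is known for roles at the growth plate. CXCL12 is a chemokine made by stromal cells that signals through CXCR4 and is scavenged by ACKR3. Thrombomodulin, the product of Thbd, is a surface receptor of thrombin that promotes activation of protein C and is best known from endothelium.

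In the annotation of the build of the deposited tables (GRCm38), Pdgfra lies on the plus strand of chromosome 5 from 75152292 to 75198215, Egfr on the plus strand of chromosome 11 from 16752203 to 16918158, Cxcl12 on the plus strand of chromosome 6 from 117168535 to 117181367, and Thbd on the minus strand of chromosome 2 from 148404466 to 148408188. The 250 bases before the RefSeq start of 3 of them are shown (build GRCm38.p6, plus strand, 5′ to 3′), to set the letters at their starts beside their patterns over clusters. Capitals mark the GC box GGGCGG, read on both strands and with overlaps counted. The windows are chr5:75152001-75152250 for Pdgfra, chr11:16751953-16752202 for Egfr and chr6:117168285-117168534 for Cxcl12.
Pdgfra: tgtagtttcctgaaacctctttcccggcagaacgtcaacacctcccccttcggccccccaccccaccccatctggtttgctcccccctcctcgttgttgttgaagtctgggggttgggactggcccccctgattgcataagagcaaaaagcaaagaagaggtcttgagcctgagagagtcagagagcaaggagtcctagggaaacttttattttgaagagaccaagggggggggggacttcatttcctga
Egfr: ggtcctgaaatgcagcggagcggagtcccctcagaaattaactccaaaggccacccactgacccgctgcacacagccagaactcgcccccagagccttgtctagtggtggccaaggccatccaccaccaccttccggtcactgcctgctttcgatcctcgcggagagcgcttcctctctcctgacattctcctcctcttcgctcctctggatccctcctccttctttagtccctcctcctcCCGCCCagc
Cxcl12: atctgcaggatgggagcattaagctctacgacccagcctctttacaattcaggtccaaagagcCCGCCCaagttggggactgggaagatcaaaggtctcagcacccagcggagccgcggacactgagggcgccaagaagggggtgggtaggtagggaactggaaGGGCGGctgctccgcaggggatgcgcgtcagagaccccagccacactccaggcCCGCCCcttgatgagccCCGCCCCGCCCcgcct
The GC box was present 5 times before Cxcl12, 1 time before Egfr and 0 times before Pdgfra, and 32.7% of 32851 RefSeq windows of the same length held at least 1. The GLI motif GACCACCCA was present in none of these 3 windows on either strand, and 0.225% of all windows held it. The share of G and C was 64.4% for Cxcl12, 60.8% for Egfr and 54.4% for Pdgfra, against a median of 52.4%. These are matches of letters and not measured sites.

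Of 6873 barcodes that passed the filters on UMIs, genes and mitochondrial counts, 3721 had too few sex-linked UMIs to be given a condition, 2744 of them in the tdT- library of replicate 2, and were left out. After the further filters 2863 cells were kept, with 377 to 1051 cells per library and a median of 17384 to 27686 UMIs per cell. They fell into 25 clusters. The 5 clusters with 761 cells were chondrocyte-like (cartilage below), 17 with 2020 cells were set apart as outside cartilage, and 82 cells were immune-, muscle- or endothelial-like. Most of the 17 clusters outside cartilage were given no name from the marker lists and were placed there as the remainder. Whether all of those unnamed cells are mesenchymal was not tested. All names come from marker lists and stand for cells like the type named. Outside cartilage also held unnamed clusters with Col2a1, the main collagen gene of cartilage, at 4396 CPM (UMI counts scaled to a common library size; cluster 3) and 2931 CPM (cluster 4), and 4 low-depth clusters that came nearly all from 1 library each (75 of 76 cells of cluster 15 from tdT+ replicate 2, and 67 of 68 cells of clusters 20, 22 and 25 from tdT- replicate 2). The labels held for the sort, since the tdTomato transcript was at 13.7 to 25.7 CPM in the 8 tdT+ values and 0.428 to 4.05 CPM in the 8 tdT- values over both compartments. The WPRE element of the transgenes was at 1084, 1913, 1156 and 1299 CPM in EXP cartilage and at 557, 491, 101 and 70.4 CPM in control cartilage. It was higher by 2.64 ± 0.40 on the log2 scale (SE), with an adjusted p of 0.029 (edgeR's quasi-likelihood test, Benjamini-Hochberg adjustment over all genes tested, as for every adjusted p here), which was 0.0905 with library as a replicate block and was over the threshold in 8 of 12 fits that left out a sample or library (0.0592 to 0.119). Only 40 barcodes were shared between libraries, 2 of them among kept cells.

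Outside cartilage, each of the 5 genes had a higher mean in tdT+ than in tdT- samples, and 3 of the 5 had no overlap between the fractions, with all tdT+ samples above all tdT- samples. Of all 14262 genes tested there, 3.85% had such a gap in that direction and 3.03% in the other, and since this contrast chose the 5 genes nothing is read from their count. Values are normalized CPM, with library sizes scaled by TMM within each compartment, given for EXP replicates 1 and 2 and then CTL replicates 1 and 2. Pdgfra was at 148, 141, 138 and 138 CPM in tdT+ cells and at 131, 127, 120 and 120 CPM in tdT- cells. All 4 tdT+ samples lay above all 4 tdT- samples, and the fitted difference was small, 0.18 ± 0.07 on the log2 scale (SE). Pdgfrb was at 33.2, 27.5, 32.4 and 24.0 CPM in tdT+ cells against 17.2, 20.98, 18.7 and 19.9 CPM in tdT- cells, a log2 difference of 0.57 ± 0.13. Its groups did not overlap either, and both replicate 1 samples were the highest of the tdT+ group. Egfr was at 220, 162, 199 and 181 CPM against 161, 151, 120 and 140 CPM, a log2 difference of 0.42 ± 0.11. The lowest tdT+ value of Egfr and its highest tdT- value were within 2 CPM of each other (161.9 and 160.5), and the difference was 0.27 without the tdT+ library of replicate 1.

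Cxcl12 was at 116, 156, 108 and 104 CPM in tdT+ cells and at 74.0, 124, 86.1 and 106 CPM in tdT- cells outside cartilage. The groups overlapped, EXP replicate 2 was the highest sample of both fractions, and the log2 difference was 0.27 ± 0.15. It was 0.07 without the tdT- library of replicate 1, 0.55 without that of replicate 2 and 0.17 without the tdT+ library of replicate 2, and 0.14 without the EXP tdT- sample of replicate 1 and 0.15 without the EXP tdT+ sample of replicate 2. Thbd was the gene with the fewest UMIs, at 10.2, 9.84, 6.79 and 14.2 CPM against 6.61, 8.33, 5.21 and 3.76 CPM, with a log2 difference of 0.73 ± 0.28. Its ranges overlapped between 6.79 and 8.33 CPM, and the difference was 0.44 without the control tdT+ sample of replicate 2. Between the fractions outside cartilage 0.449% of genes were called higher and 0.498% lower in tdT+ cells at an adjusted p of 0.05 (edgeR). Marker lists of other cell types differed in both directions. The 8 perichondrium markers summed to 4365 to 5759 CPM in tdT+ and 3330 to 4754 CPM in tdT- samples with none at 0 in any sample. The 8 interzone markers summed to 776.5 to 912.3 and 1067 to 1743 CPM, so every tdT+ sample was lower. The 8 tenocyte markers were at 228.5 to 326.0 and 243.8 to 608.1 CPM and the 9 fibroblast markers at 2768 to 3169 and 2340 to 3129 CPM, with overlap, and the 12 chondrocyte markers summed to 4287 to 5781 and 5499 to 8615 CPM. The part of this makeup in the differences was not tested.

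**Figure D1:**
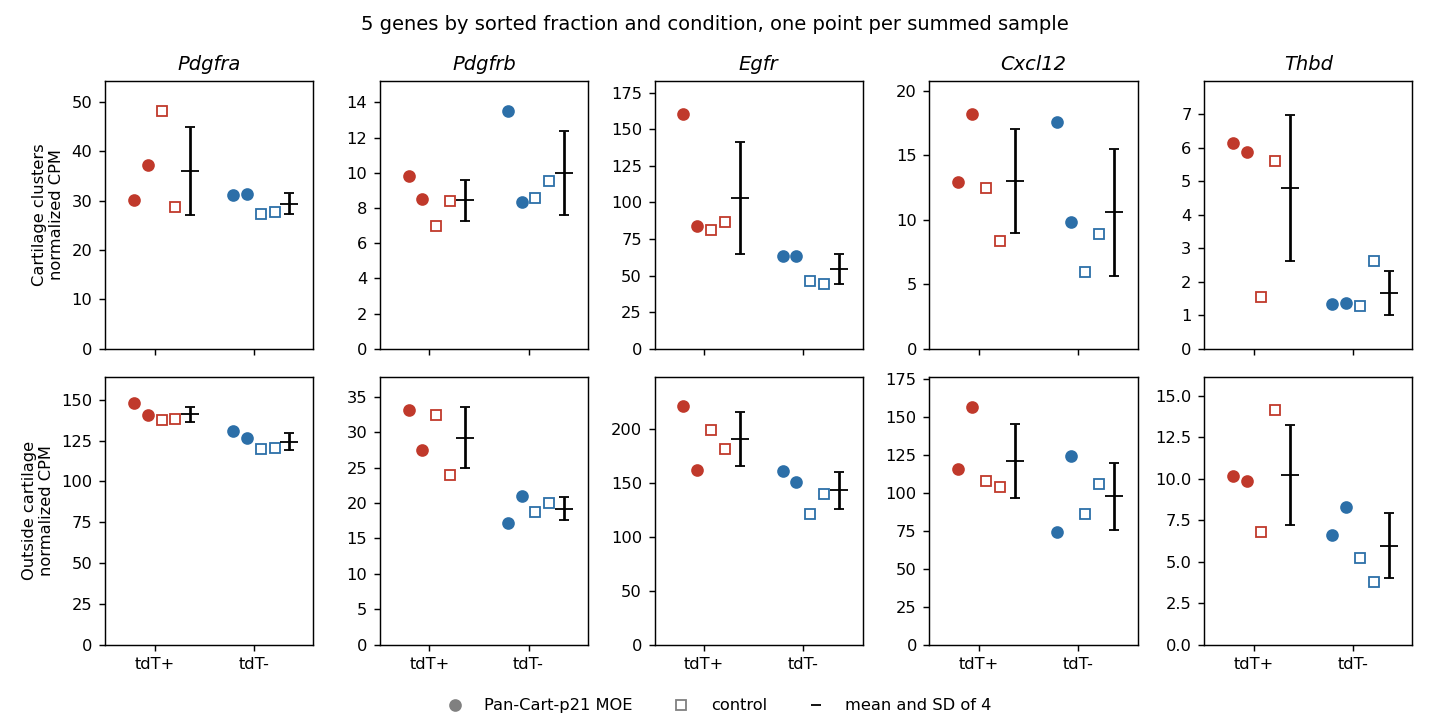
Each panel plots 1 gene as TMM-scaled CPM (linear axis from 0) in tdT+ (red) and tdT- (blue) summed samples, with cartilage above and outside cartilage below. Filled circles are Pan-Cart-p21 MOE and open squares control samples, with EXP 1, EXP 2, CTL 1 and CTL 2 from left to right, and black bars show the mean and SD of 4. Egfr separates the fractions in both rows, while Pdgfra and Pdgfrb separate them only in the lower row.

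In cartilage each of the 5 genes was lower than outside in all 8 matched samples. Levels within and outside cartilage chose the genes and the share of all genes was not computed, so nothing is read from that count. Between the fractions 1 of the 5, Egfr, had no overlap, against 1.38% of the 11606 genes tested with all tdT+ samples higher and 1.27% with all lower. Egfr was at 160, 84.1, 80.9 and 86.6 CPM in tdT+ chondrocytes and at 63.5, 63.3, 46.6 and 44.4 CPM in tdT- chondrocytes, a log2 difference of 0.90 ± 0.18. EXP replicate 1 stood far above the other tdT+ samples. Pdgfra was at 30.1, 37.3, 48.2 and 28.6 CPM against 31.1, 31.3, 27.4 and 27.6 CPM, with overlapping groups and a log2 difference of 0.30 ± 0.18, which was 0.11 without the control tdT+ sample of replicate 1 and 0.17 without the tdT+ library of replicate 1. Pdgfrb was the only gene with a lower mean in tdT+ cartilage, at 9.83, 8.51, 7.003 and 8.38 CPM against 13.501, 8.34, 8.55 and 9.54 CPM (log2 difference -0.16 ± 0.26). That difference was -0.36 without the EXP tdT- sample of replicate 2 and -0.35 without its library, -0.0635 without the EXP tdT- sample of replicate 1 and -0.0684 without its library, and -0.105 without the control tdT+ sample of replicate 1. Cxcl12 overlapped as well, at 12.9, 18.2, 12.4 and 8.38 CPM against 17.6, 9.85, 5.99 and 8.88 CPM (0.45 ± 0.27, or 0.22 without the EXP tdT- sample of replicate 2). Thbd rested on 71 UMIs in all of cartilage, with 10, 29, 2 and 8 UMIs in tdT+ and 1, 10, 3 and 8 UMIs in tdT- samples, or 6.15, 5.88, 1.56 and 5.59 CPM against 1.35, 1.37, 1.28 and 2.63 CPM. Of the 4 tdT+ samples 3 lay above every tdT- sample, the fitted log2 difference was 1.54 ± 0.49, and Thbd passed the filter on low counts in only part of the alternative fits. In cartilage 0.00862% of genes were called higher and 0.00862% lower in tdT+ cells, and nothing is read from the count of the 5 genes.

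Levels this low in chondrocytes were set beside those of small barcodes, which can hold small cells as well as free RNA. In barcodes under 1000 UMIs, which were too small to be kept as cells, Pdgfra was at 19.1 to 40.7 CPM in the 4 libraries, a range that included the pooled 28.01 to 38.4 CPM of cartilage cells. Cxcl12 was at 31.1 to 96.5 CPM in such barcodes and at 8.69 to 15.8 CPM in cartilage cells. Egfr was at 19.1 to 38.0 CPM in those barcodes and at 50.2 to 126 CPM in cartilage cells, higher in every library. Pdgfrb was at 3.66 to 13.9 CPM in small barcodes and 8.34 to 9.66 CPM in cartilage cells. Thbd was at 0 to 2.68 CPM in small barcodes, at 4.15 and 5.71 CPM in tdT+ and at 1.29 and 1.71 CPM in tdT- cartilage cells, above the small barcodes of the same library in 3 of 4. In the small barcodes of both tdT+ libraries Cxcl12 (72.5 and 96.5 CPM) and Egfr (29.97 and 38.0 CPM) were above those of both tdT- libraries (34.7 and 31.1 CPM, 19.1 and 20.1 CPM). Markers of fibroblasts summed to 1087 to 1265 CPM in tdT+ and 1025 to 1150 CPM in tdT- cartilage, and the part of free RNA or other cells in the cartilage values was not tested.

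When each cell was thinned to 5000 UMIs, 42.0% of 1825 cells outside cartilage had a Pdgfra UMI (95% exact binomial interval 39.7 to 44.3%), against 13.9% of 727 chondrocytes (11.5 to 16.6%). For Egfr the shares were 41.7% (39.4 to 44.0%) and 23.4% (20.4 to 26.6%), and for Cxcl12 29.2% (27.1 to 31.3%) and 5.78% (4.195 to 7.73%). Pdgfrb was seen in 11.3% and 4.13%, and Thbd in 3.07% and 0.825% of these cells. Unthinned, at a median of 23700 UMIs outside and 25950 UMIs in cartilage, the Pdgfra shares were 78.1% and 47.9%. Immune and muscle cells served as a comparison, because Pdgfra is a gene of mesenchymal cells. In the 36 immune cells (median 12970 UMIs) 33.3% had a Pdgfra UMI (18.6 to 51.0%) and 52.8% an Egfr UMI (35.5 to 69.6%), and in the 31 muscle cells (median 15370 UMIs) 16.1% (5.45 to 33.7%) and 38.7% (21.9 to 57.8%). The cartilage shares of all 5 genes but Thbd lay under both of these, and that of Thbd under the immune share of 5.56%. For Pdgfra, the interval of muscle cells covered the cartilage share. The part of background in the cartilage shares was not tested, nor was whether immune and muscle cells lack these genes. The intervals cover counting error only.

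**Figure D2:**
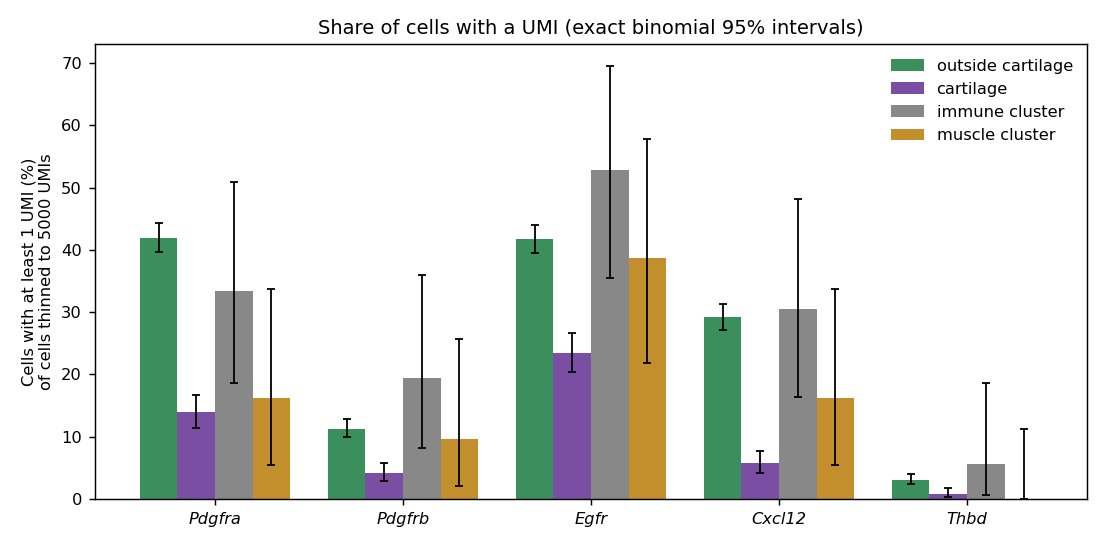
Bars give the percent of cells with at least 1 UMI of each gene after thinning to 5000 UMIs per cell, pooled over the 4 libraries, for cells outside cartilage, cartilage cells, the immune cluster and the muscle cluster. Error bars are exact binomial 95% intervals. Cartilage bars are the lowest or next to lowest for every gene, and outside cartilage the share of Pdgfra (42.0%) exceeds that of muscle cells (16.1%).

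Within cartilage the levels differed between kinds of chondrocytes. Here and for all clusters, values are CPM of the summed counts of a cluster over the 4 libraries. Egfr was at 144 CPM in chondrocyte cluster 2, 73.3 CPM in the resting cluster, 34.3 CPM in the hypertrophic cluster and 19.6 CPM in the proliferative cluster. Shares of thinned cells had the same order, from 34.3% (28.7 to 40.3%) in cluster 2 to 11.1% (6.82 to 16.8%) in the proliferative cluster, whose intervals did not overlap. Pdgfra was at 45.0, 42.8, 24.1 and 16.4 CPM in the same 4 clusters. Clusters 2 and resting, neighbours in that order, did not differ beyond the spread of their libraries (31.7 to 51.8 CPM and 33.6 to 57.8 CPM). Cxcl12 was highest in the hypertrophic cluster, at 25.4 CPM.

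Outside cartilage, Pdgfra was spread over many clusters, while Cxcl12 was concentrated in few. Among clusters of full depth Pdgfra reached 271 CPM in the perichondrium-like cluster of 33 cells and was at 181 CPM in the fibroblast-like cluster, 173 CPM in each of the unnamed clusters 1 and 11, 129 CPM in tenocyte-like cells, 115 CPM in interzone-like cells and 91.7 CPM in osteoprogenitor-like cells. The fibroblast-like cluster (146 to 206 CPM over libraries) and cluster 1 (141 to 188 CPM) did not differ beyond that spread. In cluster 3, which had high Col2a1, it was at 42.8 CPM.

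Egfr was highest in 2 unnamed clusters. Cluster 22 (449 CPM) had 20 cells, 19 of them from tdT- replicate 2, and cluster 1 (328 CPM, 321 cells) was led by Erc2, Thsd7b and Gabrb1, with Runx2, a transcription factor of the bone lineage, and Alpl, alkaline phosphatase, next in order. The best marker list of cluster 1 was perichondrium, with a mean log2 difference of 1.14 to other cells, beside 1.11 in the perichondrium-like cluster 19. Aspn, a perichondrium marker, was also among its 10 leading genes. Cluster 1 was left unnamed because 2 of those genes were osteoprogenitor markers and 1 was a perichondrium marker. Without removal by Scrublet score, clusters of 204 and 199 cells were named perichondrium. Over the 4 libraries Egfr in cluster 1 was at 252 to 370 CPM. In osteoprogenitor-like cells Egfr was at 16.5 CPM (18 UMIs), near its level in proliferative chondrocytes, and 2.63% of thinned cells had a UMI (0.0666 to 13.8%) against 69.0% in cluster 1 (63.6 to 74.0%). Pdgfrb was also highest in cluster 1, at 48.9 CPM, followed by the fibroblast-like cluster at 34.4 CPM and the osteoprogenitor-like cluster at 32.1 CPM.

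Cxcl12 marked 3 clusters. It was at 395 CPM in the fibroblast-like cluster, 337 CPM in cluster 18 and 305 CPM in cluster 11, which was led by Galntl6, Chodl, Ebf2 and Lepr, and in 72.2% (65.5 to 78.2%), 76.5% (58.8 to 89.3%) and 62.6% (52.7 to 71.8%) of their thinned cells. The remaining clusters outside cartilage were at 117 CPM or less, and the perichondrium-like cluster, where Pdgfra was highest, was at 8.11 CPM with 0 of 33 thinned cells having a Cxcl12 UMI (up to 10.6%). Thbd followed another order, with 50.6 CPM (23 UMIs) in the 15 endothelial cells, 28.3 CPM in cluster 11, 24.1 CPM in cluster 12, 18.4 CPM in the Isl1-led cluster 10 and 13.3 CPM in the fibroblast-like cluster. In cluster 1, where Egfr was high, Thbd was at 2.00 CPM.

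**Figure D3:**
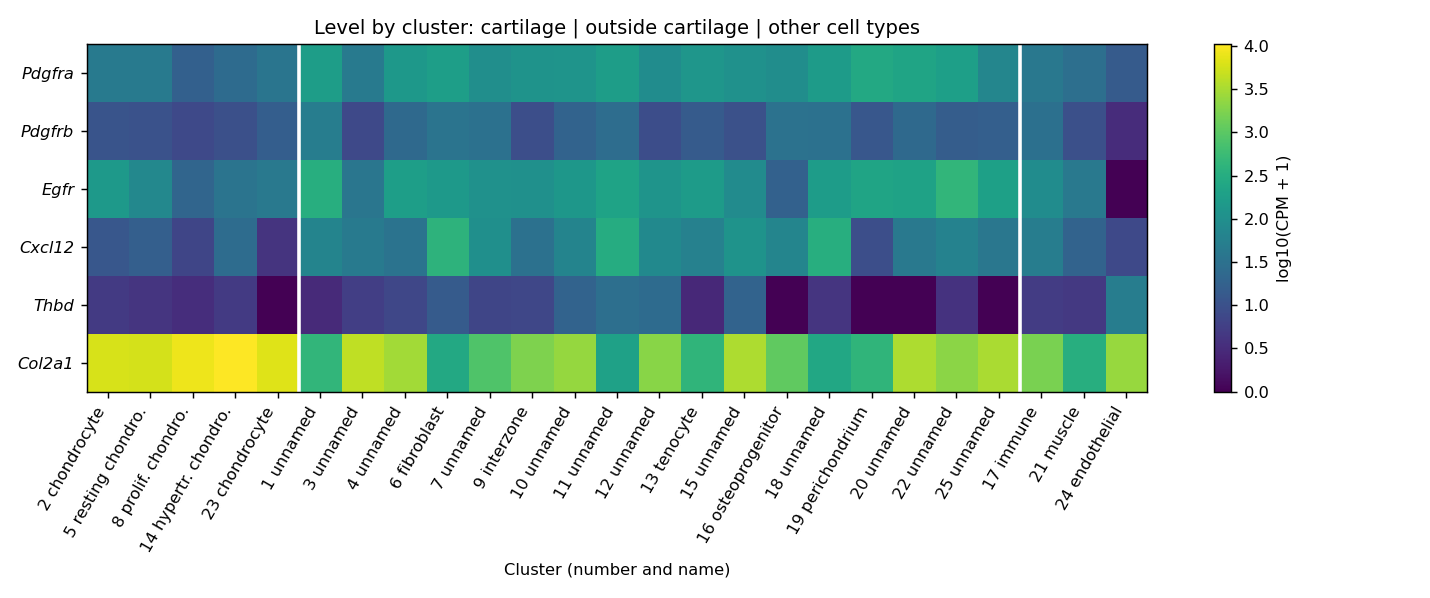
The colour of each cell gives log10(CPM + 1) of a gene (rows, with Col2a1 for reference) in a cluster (columns), from counts summed over the 4 libraries. White lines separate cartilage, outside cartilage and other cell types. Cxcl12 peaks in fibroblast-like cells and clusters 11 and 18, Egfr in clusters 1 and 22, and Thbd in endothelial cells.

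The fractions were then compared inside clusters, in the 11 clusters with at least 10 cells in every library. Both tdT+ libraries lay above both tdT- libraries in 7 of the 11 clusters for Thbd (below in 1), 5 for Egfr (below in 0), 5 for Cxcl12 (below in 1), 4 for Pdgfra (below in 0) and 3 for Pdgfrb (below in 2). In the remaining clusters the libraries overlapped. The fraction contrast chose the 5 genes, and the share of all genes with such an order was not computed, so nothing is read from these counts. Thbd also had the fewest UMIs, 435 in all samples outside cartilage and 71 in cartilage. Thbd in cluster 12, led by Mybpc1, Egfem1 and Cntnap5a, was at 37.8 and 48.1 CPM in the tdT+ and at 8.71 and 10.5 CPM in the tdT- libraries. With every one of the 11 clusters weighted equally, Thbd was at 10.5 and 13.0 CPM in tdT+ and 3.38 and 6.07 CPM in tdT- libraries, and Egfr at 174 and 129 CPM against 112 and 124 CPM. Pdgfrb, by the same weighting, was at 21.9 and 18.6 CPM against 16.8 and 19.9 CPM, so its libraries overlapped. Pdgfra was at 110 and 103 CPM against 100 and 94.1 CPM and Cxcl12 at 102 and 114 CPM against 80.3 and 93.2 CPM, without overlap. These 11 clusters include cartilage clusters, so these values cannot be set directly against those of either pooled compartment. The tdT+ value of Egfr in chondrocyte cluster 2 was 298 CPM in replicate 1 and 139 CPM in replicate 2, against 101 and 115 CPM in tdT- libraries.

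**Figure D4:**
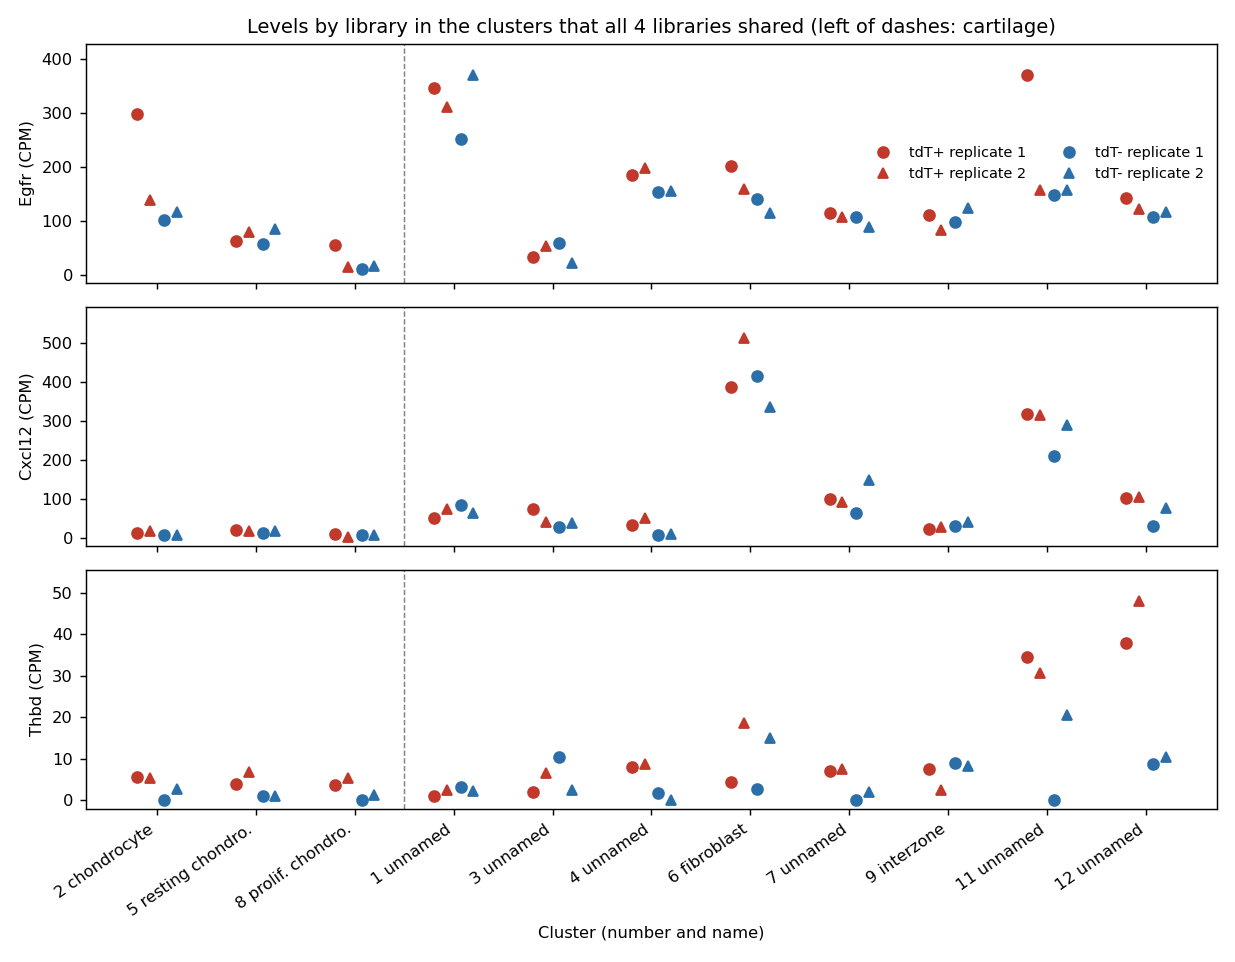
CPM of Egfr, Cxcl12 and Thbd (linear axes) in each of the 11 clusters present in all libraries, with 1 point per library, tdT+ in red and tdT- in blue, circles for replicate 1 and triangles for replicate 2. Cartilage clusters are left of the dashed line. In cluster 12 both Thbd points of tdT+ cells (37.8 and 48.1 CPM) lie above those of tdT- cells (8.71 and 10.5 CPM).

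To describe which genes had the most similar pattern, log2(CPM + 1) was correlated over the 25 clusters with that of 11191 genes, as a description over clusters that share libraries and depth. The 3 most alike were Cacna1g (Pearson r 0.918), Col5a1 (0.912) and Lhfp (0.900) for Pdgfra, and Maf (0.866), Slit3 (0.859) and Mgat3 (0.851) for Pdgfrb. For Egfr they were Epha4 (0.910), Adgrb3 (0.899) and Gm13052 (0.887), for Cxcl12 Col6a2 (0.826), B4galt2 (0.814) and Gsta4 (0.800), and for Thbd Peg13 (0.767), Thsd1 (0.733) and Trp53i11 (0.731). Among the 5 genes, Pdgfra and Egfr were the most alike (0.784) and Pdgfrb and Thbd the least (-0.283).

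The comparison of the p21 challenge was not used in the rule that chose the genes, and here they were tested. None of the 5 passed in Pan-Cart-p21 MOE against control cells, in cartilage or outside, and in both compartments the EXP and CTL samples of all 5 overlapped. In cartilage 2.79% of genes tested had all EXP samples above all CTL samples and 2.91% all below, and outside 1.21% and 1.3%. In cartilage, mean Egfr was 92.8 ± 46.1 CPM (SD, n = 4) in EXP and 64.6 ± 22.2 CPM in CTL samples, a log2 fold change of 0.50 ± 0.18 (edgeR adjusted p = 0.38). Each SD by condition is over 4 summed samples that hold both fractions of each embryo pool, so it includes the difference between fractions. Within tdT- cells both EXP samples were above both CTL samples (63.5 and 63.3 against 46.6 and 44.4 CPM), while in tdT+ cells only EXP replicate 1 stood apart. Without the filter on low counts Egfr passed, with an adjusted p of 0.0369. Cxcl12 was at 14.6 ± 3.97 CPM in EXP and 8.92 ± 2.67 CPM in CTL cartilage, a log2 fold change of 0.64 ± 0.27 (edgeR adjusted p = 0.47). Pdgfra differed by 0.02 ± 0.18, Pdgfrb by 0.15 ± 0.26 and Thbd by 0.18 ± 0.49 on the log2 scale, each with an edgeR adjusted p of 0.95 or more (0.998, 0.990 and 0.953). Of 11606 genes tested there, 0.121% (14 genes) were called in either direction.

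Outside cartilage all 5 fold changes were positive and small, and none passed. Cxcl12 was at 118 ± 33.9 CPM in EXP and 101 ± 9.96 CPM in CTL samples (log2 0.24 ± 0.15), Thbd differed by 0.26 ± 0.28, Egfr by 0.12 ± 0.11, Pdgfra by 0.08 ± 0.07 and Pdgfrb by 0.07 ± 0.13, with an edgeR adjusted p of 1.00 for each. In this compartment 0 of 14262 genes (0%) were called by edgeR, 730 had an unadjusted p under 0.05, and DESeq2 called 4. Whether the p21 challenge acted differently in tdT+ and tdT- cells was asked with the interaction of condition and fraction, and none of the 5 passed in either compartment (edgeR adjusted p 0.999 to 1.00). The largest estimates were those of Thbd, 1.25 ± 1.05 in cartilage and -0.88 ± 0.54 outside. The background was 0% of 12119 genes in cartilage (306 with an unadjusted p under 0.05, 1 called by DESeq2) and 0% of 14676 genes outside (303, and 2 by DESeq2).

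**Figure D5:**
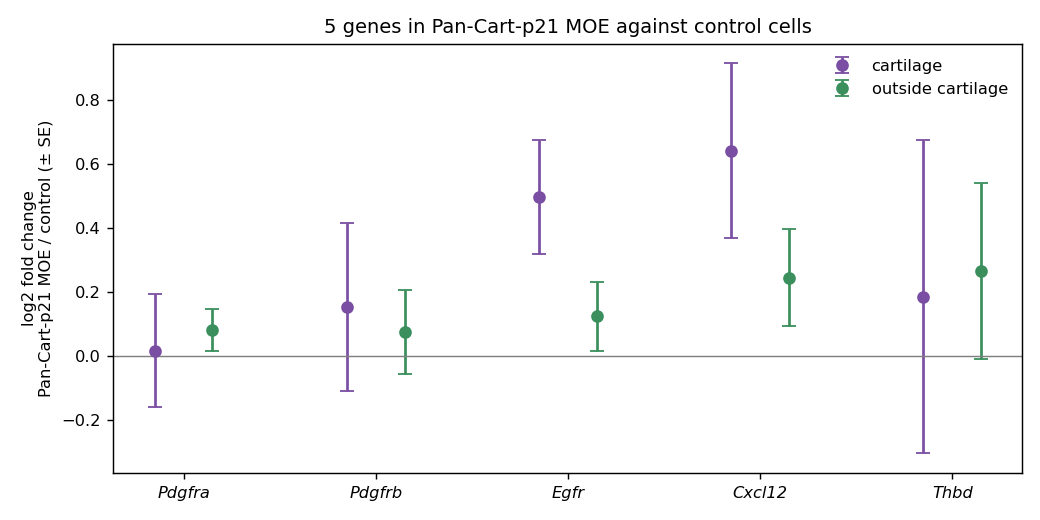
Log2 fold change of Pan-Cart-p21 MOE over control cells for each gene in cartilage (purple) and outside cartilage (green), from 8 summed samples per compartment, with bars of 1 SE. Egfr (0.50) and Cxcl12 (0.64) in cartilage are the largest estimates, and no gene passed the threshold.

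The partners of these receptors and ligands were read from 7 lists of 63 genes. Among PDGF ligands, Pdgfa was at 15.4 ± 5.51 CPM (SD, n = 8) in cartilage and 25.2 ± 10.7 CPM outside, and Pdgfc at 21.01 ± 6.72 and 72.7 ± 21.3 CPM, whereas Pdgfb had 2 UMIs in cartilage and 33 outside. Pdgfc was highest in tenocyte-like cells (208 CPM). Hbegf, an EGFR ligand, was at 25.8 ± 8.62 CPM in cartilage and 12.4 ± 4.59 CPM outside. Cxcr4, the signalling receptor of CXCL12, had 2 UMIs in cartilage and 22 outside, and was at 33.5 CPM in immune cells, while the scavenging receptor Ackr3 was at 16.9 ± 6.67 and 27.6 ± 5.81 CPM and highest in interzone-like cells (69.2 CPM). For Thbd, the partner F2r, a thrombin receptor, was at 14.0 ± 4.69 and 29.2 ± 4.54 CPM, and Procr, the protein C receptor, at 1.39 ± 0.88 and 2.24 ± 0.36 CPM.

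Of 54 list genes tested between the fractions outside cartilage, 1 rose and 1 fell in tdT+ cells. Spry2, a feedback inhibitor of receptor tyrosine kinase signalling, was at 55.0, 60.2, 55.0 and 47.9 CPM in tdT+ and 105, 87.3, 95.8 and 94.5 CPM in tdT- samples. Every tdT+ sample lay below every tdT- sample, and it fell by 0.80 on the log2 scale (SE 0.09, edgeR adjusted p = 0.00405). Without the tdT+ library of replicate 1 its adjusted p was 0.0709. Epha3, an ephrin receptor, was at 354, 218, 269 and 271 CPM in tdT+ and 215, 160, 133 and 146 CPM in tdT- samples and rose by 0.79 ± 0.15 (edgeR adjusted p = 0.0385). That call was lost in 9 of 12 fits without a sample or library (0.0605 to 0.428), and held only without the tdT+ library of replicate 2, or without the tdT+ replicate 2 or tdT- replicate 1 sample of EXP. The counts by list were 0 of 3 tested PDGF ligands, 0 of 8 EGF family ligands, 0 of 6 ErbB receptors and EGFR inhibitors, 0 of 1 CXCL12 receptors and protease, 0 of 6 thrombin and protein C pathway genes, 1 of 10 feedback genes and 1 of 20 other stromal receptors. The median log2 difference was -0.31 for the PDGF ligands, -0.35 for the EGF family ligands and -0.21 for the ErbB list, beside -0.01 over all genes tested. With the embryo pool as a replicate block 321 genes were called in place of 135. Erbb4, of the ErbB list and named after its values were seen, did not pass in the main fit. It was called lower with that block, with DESeq2 and with barcodes from 3000 UMIs. At Leiden resolution 0.5 and with cartilage set by matrix gene share it was not called. Ackr3 was the only gene of its list above the filter on low counts (-0.03 ± 0.17).

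In cartilage, 0 of 40 list genes tested passed between the fractions and 0 of 40 between EXP and CTL. Outside cartilage, 0 of 54 passed between EXP and CTL. The count depended on the filter, since without a filter on low counts 2 list genes rose and 1 fell in EXP cartilage. The latter was Dusp6, a phosphatase of the ERK pathway, named after its values were seen, whose estimate of -0.93 had an edgeR adjusted p of 0.208 and passed in 1 of 21 alternatives (0.000774 to 0.544). Between the fractions outside cartilage its estimate of -0.52 had an edgeR adjusted p of 0.0577 and passed in 6 of 24 (0.00611 to 0.468), and without the filter 3 list genes were called higher and 8 lower there. Ackr3 was lower in EXP cartilage by a log2 estimate of -0.71 ± 0.24 that did not pass (edgeR adjusted p = 0.35), beside the estimate of 0.64 for its ligand gene Cxcl12. Pdgfa was at -0.77 ± 0.24 in tdT+ against tdT- cartilage (edgeR adjusted p = 1.00) and Hbegf at -0.70 ± 0.18 outside (edgeR adjusted p = 0.12).

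Joint detection in thinned cells described how far the genes marked the same cells. Outside cartilage, 47.5% of the 766 cells with Pdgfra also had Egfr, against 37.5% of the cells without. For Pdgfrb and Egfr the shares were 56.8% and 39.8%, and for Cxcl12 and Thbd 5.26% and 2.17%. Cxcl12 was detected about as often in cells with Egfr (28.1%) as in cells without (29.9%). These cells share libraries and depth, so the shares are a description.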

How the data were processed

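Per the labels and the study's methods, reads were aligned by the authors with Cell Ranger 7.2.0 to GRCm38 plus the transgenes, and the deposited tables hold raw UMI counts (genes by barcodes). The methods also name CellBender and DoubletFinder, and no sign of them was found in the counts. Files were read with Python 3.11.15 and scanpy 1.11.5. Barcodes under 1000 UMIs or 500 genes, or above 10% mitochondrial counts, were dropped. Cell sex, from sex-linked transcripts (at least 2 UMIs, 80% of them of 1 sex), gave the condition as the study's methods describe, and barcodes with no such call (3721), sex-mixed barcodes (175) and the top 5% of Scrublet scores were left out. Leiden clusters (resolution 1) were named from marker lists. The clusters outside cartilage rest on rebuilt names.

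Summed counts per library, condition and compartment (743418 to 12614920 UMIs, 30 to 515 cells) were fitted in R 4.3.3 with edgeR 4.0.16 (filterByExpr, TMM, quasi-likelihood test, Benjamini-Hochberg over all genes, threshold 0.05). Each SE is the size of the log2 fold change over the root of F, and edgeR may raise p of low counts above it. DESeq2 1.42.0 was an alternative. The fit was run on simulated counts of independent samples with the same dispersion for every gene. They do not share embryos as the real samples do, so they cannot show how the fit behaves under that pairing. The 5 genes and all lists were chosen with earlier results of these data known. Genes named were the 5, list genes that passed or pair with them, the 3 most alike over clusters, and the checks. The tdT+ and tdT- samples of a pool share embryos by the study's methods, so they are paired, and their deviations from the group means correlated at 0.0594 to 0.341.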

Additional observations from a re-analysis of the deposited data

Results flagged for a closer look

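Samples far from the other 3 of their group were looked for in 40 groups of 4, by the gap to the nearest sample over the range on the log2 scale, of which chance flags about 1 in 20 groups, and 4 were found, all in cartilage. Pdgfra in control cartilage had the tdT+ replicate 1 sample at 48.2 CPM (gap over range 0.920). Egfr in tdT+ cartilage had the EXP replicate 1 sample at 160 CPM (0.901). Thbd in tdT+ cartilage had the control replicate 1 sample at 1.56 CPM, from 2 UMIs (0.925), and in tdT- cartilage the control replicate 2 sample at 2.63 CPM, from 8 UMIs (0.917). No interaction of condition and fraction passed for these genes.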

How the results depend on the processing

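Processing moved the counts of genes called more than the 5 genes' values. In the order condition, fraction and interaction in cartilage, then the same outside, the counts were 14, 2, 0, 0, 135 and 0, with DESeq2 93, 8, 1, 4, 285 and 2, and without the filter on low counts 385, 130, 36, 134, 785 and 65. Leaving out a sample or library gave 1 to 39, 0 to 7, 0 to 2, 0 to 1, 2 to 154 and 0 to 2, the 1 without tdT- library 2 and the 2 outside without tdT+ library 1. Condition calls in cartilage were 34 with barcodes from 3000 UMIs, 46 without removal by Scrublet score and 28 at Leiden resolution 0.5. Over 4 whole libraries the fraction gave 5 calls in cartilage and 423 outside. With cartilage cells set by matrix gene share there were 1 condition and 269 fraction calls outside. Other definitions of outside cartilage were chosen after seeing the data, and gave 222 fraction calls (12 clusters of low cartilage score) and 1 condition call (all cells outside).

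With a replicate block the calls were 12, 7, 1, 1, 321 and 0. That block was the library for condition and the embryo pool for fraction and interaction. The Egfr interaction in cartilage was -0.11 in place of 0.03. With the library as block, WPRE was no longer called for condition in cartilage. With the embryo pool as block, Erbb4 was called lower in tdT+ cells outside cartilage. No other call on a list gene changed with a block. The pool joins tdT+ and tdT- samples of the same embryos.

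Some estimates changed sign, none past the threshold, and not all of these were near 0 in the main fit. The main interaction was -0.34 for Pdgfra in cartilage and 0.27 for Cxcl12 outside, and the main condition estimate of Thbd outside was 0.26. Condition in cartilage for Pdgfra was -0.115 (3000 UMIs), -0.0874 (no Scrublet), -0.0111 (resolution 0.5) and -0.0991 (matrix gene share), and for Thbd -0.22 (resolution 1.5). Outside, condition for Thbd was -0.000906 (matrix gene share), and the interaction was -0.0201 (no Scrublet), -0.0821 (matrix gene share) and -0.0809 (12 clusters) for Pdgfrb and 0.0158 for Pdgfra (12 clusters). Leaving out a sample or library, condition ranged in cartilage from -0.086 to 0.25 for Pdgfra and -0.26 to 0.37 for Thbd, and outside from -0.0329 to 0.17 for Pdgfrb and -0.0019 to 0.71 for Thbd. The interaction ranged in cartilage from -0.87 to 0.20 for Pdgfra, -0.43 to 0.41 for Pdgfrb, -0.52 to 0.50 for Egfr and -0.91 to 0.48 for Cxcl12, and outside from -0.0669 to 0.0041 for Pdgfra, -0.13 to 0.31 for Pdgfrb and -0.0013 to 0.75 for Cxcl12. Thinned to 2000 UMIs, the shares with a UMI of Pdgfra, Pdgfrb, Egfr and Cxcl12 were 7.01, 2.12, 12.2 and 2.25% in cartilage and 21.6, 4.95, 23.5 and 15.5% outside, with Thbd at 2.22% outside. The cause of these moves was not tested. Thbd in cartilage is limited by its 71 UMIs.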
